A study of Mus musculus with 6 samples.

Results

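The matrix metalloproteinases and their tissue inhibitors were followed through 6 arrays of mouse fibroblasts with switchable oncogenes and a switchable IRF-1. The family comprised 10 genes, Mmp2, Mmp3, Mmp9, Mmp11, Mmp13, Mmp14, Timp1, Timp2, Timp3 and Adamts1, and its members were all probe sets that the platform annotation gave to these symbols alone. That rule found 10 genes of 8251 named on the array, with 15 of its 12488 probe sets. In a probe set several short probes read the same transcript, and the MAS5 signal is their combined brightness on a linear scale. Only 6 of the 15 probe sets, for 6 genes, were bright enough to enter the test.

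All the cells were of a line labelled 35/1-22, NIH3T3 mouse fibroblasts in the design text. They carried c-myc and Ha-ras under a Tet-off promoter, which doxycycline silences, and made IRF-1hER, a fusion of IRF-1 that estradiol activates, all the time. The estradiol group (2 arrays) was grown without doxycycline and with estradiol for 48 h, at 1 mM as labelled. The withdrawal group (2 arrays) was grown without doxycycline or estradiol, and the doxycycline group (2 arrays) with 2 µg/ml doxycycline. The control cells thus carried the silenced oncogenes and the fusion too, and doxycycline itself differed along with the oncogenes, so that their effects cannot be told apart. Effects of IRF-1 and other effects of estradiol cannot be told apart either. Estradiol against doxycycline joins both: doxycycline, the oncogenes and estradiol with active IRF-1 differed together, and their effects cannot be told apart there. Separate cultures are not stated for the replicates. The p-values cover only how far these arrays varied, and that variation may be technical.

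Matrix metalloproteinases are zinc enzymes that cut the proteins of the extracellular matrix. Most are secreted as inactive precursors, while a few, such as MT1-MMP (encoded by Mmp14), sit in the cell membrane. TIMPs, the tissue inhibitors of metalloproteinases, bind the active site and block it. TIMP-2 has a second role, since together with MT1-MMP it presents the precursor of MMP-2 for activation at the cell surface. Fibroblasts are a main source of these proteins in connective tissue.

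The arrays did not fall cleanly by group. Of 7453 tested probe sets, 16 differed at least 2-fold between estradiol replicate 1 and withdrawal replicate 1, the fewest of any pair, while 920 differed between the withdrawal arrays. Withdrawal replicate 2 differed from doxycycline replicate 1 in 324 and from doxycycline replicate 2 in 582. The doxycycline arrays differed from each other in 283. Estradiol replicate 2 differed from estradiol replicate 1 in 250 and from withdrawal replicate 1 in 242. Labels may thus have been exchanged between arrays, estradiol replicate 1 included, which was not tested. Every comparison, also that of estradiol against doxycycline, rests on the labels as given. The title of doxycycline replicate 2 also names estradiol, although its treatment entry gives doxycycline alone, and it was kept with doxycycline. Replicate 1 of every group was extracted with RNeasy and replicate 2 with TRIzol. Of 11 fibroblast markers, 9 passed the filter on dim probe sets, and those of Vim and Lum did not. Of the markers of other cells, 2 of 6 epithelial, 3 of 7 macrophage and leukocyte and 0 of 5 endothelial ones passed. Those that passed included Cdh1 (76.6 to 171.6), Cd14 (257.4 to 379.1), Csf1r (81.8 to 155.4) and Cd68 (70.1 to 132.1). Epithelial Epcam (0.7 to 8.1), leukocyte Ptprc (1.7 to 7.4) and endothelial Cdh5 (1.4 to 5.5) did not. The signals of the tested family members are therefore given array by array.

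Among the enzymes, Mmp14 had the largest fitted difference of the 6 tested members, for estradiol against doxycycline. It encodes MT1-MMP, a collagenase and activator of MMP-2 that is anchored in the membrane. Its signals were 1147 and 776 with estradiol, 1155 and 3029.5 after withdrawal, and 3654 and 3082 with doxycycline. Both estradiol arrays and withdrawal replicate 1 were low, and withdrawal replicate 2 lay just below the doxycycline arrays. For estradiol against doxycycline the log2 fold change of signal + 32 was -1.80 (SE 0.45, 95% interval -2.83 to -0.76), with -1.64 in replicate 1 and -1.95 in replicate 2. The groups did not overlap, and a value this low ranked 37 from the lowest among 7453, yet the adjusted p of limma, fitted on all 6 arrays, was 0.255. Withdrawal against doxycycline gave -0.83 (SE 0.45, adjusted p of limma 0.925), with -1.63 in replicate 1 and -0.02 in replicate 2, and became -0.15 with withdrawal replicate 1 left out and -1.51 with replicate 2 left out. Estradiol against withdrawal gave -0.97 (SE 0.45, adjusted p of limma 1.00), with -0.01 and -1.92, and became -1.65 and -0.28 when those arrays were left out in turn. Withdrawal replicate 1 minus replicate 2 was -1.37 on the log2 scale, a wider gap than that of the withdrawal mean to either other group.

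Mmp11 encodes stromelysin-3, a metalloproteinase that furin activates inside the cell. Its signals were 73.9 and 75.3 with estradiol, 66.4 and 240.9 after withdrawal, and 134.0 and 150.9 with doxycycline. Withdrawal replicate 2 was the highest array and withdrawal replicate 1 the lowest, so that the doxycycline arrays lay between them. The log2 fold change for estradiol against doxycycline was -0.71, without overlap (SE 0.43, adjusted p of limma 0.486). Withdrawal against doxycycline gave -0.09 (SE 0.43, adjusted p of limma 0.991), which became 0.65 with withdrawal replicate 1 left out and -0.82 with replicate 2 left out. Estradiol against withdrawal gave -0.62 (SE 0.43, adjusted p of limma 1.00), which became -1.36 and 0.12 in the same fits.

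Mmp2 encodes gelatinase A, which degrades denatured collagen and type IV collagen. On its brighter probe set the estradiol arrays read 29.7 and 31.2, the withdrawal arrays 28.9 and 45.5, and the doxycycline arrays 25.4 and 40. Their mean passed the filter, which fell at a signal of about 29.0, although withdrawal replicate 1 and doxycycline replicate 1 lay below that signal. Every pair of groups overlapped. The 3 log2 fold changes were between -0.14 and 0.10 (SE 0.26), and their 95% intervals ran from -0.73 at the lowest to 0.69 at the highest. The second Mmp2 probe set lay below the filter, at 4.0 to 30.4.

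Among the inhibitors, Timp3 encodes TIMP-3, which binds to the matrix and also inhibits ADAM and ADAMTS enzymes. Its signals were 356 and 295 with estradiol, 355 and 815 after withdrawal, and 1108 and 811 with doxycycline. As for Mmp14, both estradiol arrays and withdrawal replicate 1 were low, while withdrawal replicate 2 stood at the level of doxycycline replicate 2. Estradiol against doxycycline gave a log2 fold change of -1.46 (SE 0.40, 95% interval -2.38 to -0.55), with -1.56 in replicate 1 and -1.37 in replicate 2 and an adjusted p of limma of 0.255. Withdrawal against doxycycline gave -0.78 (SE 0.40, adjusted p of limma 0.925), with -1.56 and 0.01, and estradiol against withdrawal gave -0.69 (SE 0.40, adjusted p of limma 1.00), with 0.00 and -1.37. With withdrawal replicate 1 left out these became -0.21 and -1.25, and with replicate 2 left out -1.34 and -0.12.

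Timp2 encodes TIMP-2, the inhibitor that also takes part in activating MMP-2. On its brightest probe set the estradiol arrays read 653 and 331.5, the withdrawal arrays 624 and 812.5, and the doxycycline arrays 1771 and 1332. Here both doxycycline arrays were above the other 4, withdrawal replicate 2 included. The log2 fold change of estradiol over doxycycline was -1.65 (SE 0.37, 95% interval -2.50 to -0.81, adjusted p of limma 0.255), with -1.40 and -1.91 in the replicates. Withdrawal against doxycycline gave -1.08 (SE 0.37, 95% interval -1.92 to -0.23), with -1.46 and -0.69, an unadjusted p of limma of 0.0189 and an adjusted p of 0.925. Of the 6 tested members, Timp2 and Mmp14 were the ones lower in both replicates of that comparison. Estradiol against withdrawal gave -0.58 (SE 0.37, adjusted p of limma 1.00), with 0.06 and -1.22. It became -1.03 with estradiol replicate 1 left out, -0.12 with estradiol replicate 2 left out and -0.39 with withdrawal replicate 2 left out.

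Timp1 encodes TIMP-1, a secreted inhibitor that growth factors are known to induce. On its brighter probe set the estradiol arrays read 1983 and 994, the withdrawal arrays 1979 and 887, and the doxycycline arrays 1816 and 1875. Replicate 2 was low with estradiol and after withdrawal and the other 4 arrays were close together, so that the groups overlapped in each comparison. Doxycycline replicate 2, extracted with TRIzol too, read 1875, and an effect of the extraction method on Timp1 was not tested. The log2 fold change of estradiol over doxycycline was -0.38 (SE 0.45, adjusted p of limma 0.736), with 0.12 in replicate 1 and -0.89 in replicate 2, and it was 0.10 without estradiol replicate 2. Withdrawal against doxycycline gave -0.47 (SE 0.45, adjusted p of limma 0.938), or 0.10 without withdrawal replicate 2. Estradiol against withdrawal gave 0.08 (SE 0.45, adjusted p of limma 1.00). It was -0.48 without withdrawal replicate 2 and -0.41 without estradiol replicate 1.

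**Figure D1:**
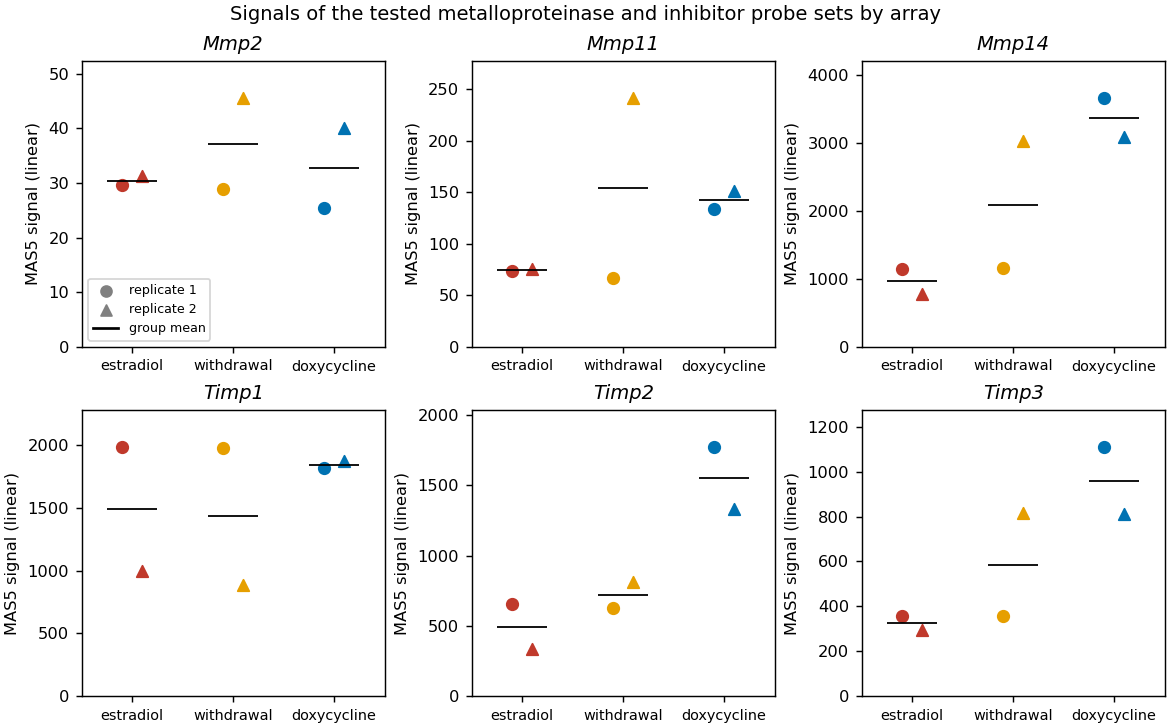
Each panel plots the linear MAS5 signal of a tested probe set on the 6 arrays, with circles for replicate 1, triangles for replicate 2 and a line at the mean of each group. Mmp14 and Timp3 are low on both estradiol arrays and on withdrawal replicate 1, Timp2 is highest on the doxycycline arrays, and Timp1 is low on replicate 2 with estradiol and after withdrawal.

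The other 9 probe sets fell below the filter and were not tested. Their signals ran from 0.3 to 30.4 over all arrays. Among them was every probe set of Mmp3 (stromelysin-1), Mmp9 (gelatinase B), Mmp13 (collagenase-3) and Adamts1, an enzyme that cuts proteoglycans. The Mmp3 probe set ranged from 1.9 to 9.6, that of Mmp13 from 3.3 to 20.4 and that of Adamts1 from 0.3 to 12.4. The 2 Mmp9 probe sets ranged from 3.6 to 12.4 and from 1.3 to 9.5. These 4 genes thus have no tested probe set, no detection calls were used here, and no fold changes are given for them. The second Timp1 probe set ranged from 0.4 to 14.1, and the other Timp2 probe sets from 3.5 to 16.6 and from 1.5 to 20.3. Their order of arrays was not that of the brighter probe set of the gene.

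Because Mmp14, Timp3 and Timp2 had their highest signals with doxycycline, the 250 bases before each start are shown here, from RefSeq on GRCm38.p6. They are written 5′ to 3′ along the gene, with GC boxes (GGGCGG on either strand) in capitals.
Mmp14 (chr14:54431348-54431597, plus strand): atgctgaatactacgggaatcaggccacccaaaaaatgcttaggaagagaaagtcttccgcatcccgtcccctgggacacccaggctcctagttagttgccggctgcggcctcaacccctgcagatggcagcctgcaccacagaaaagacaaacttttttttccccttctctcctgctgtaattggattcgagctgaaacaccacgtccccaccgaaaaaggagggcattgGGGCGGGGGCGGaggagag
Timp3 (chr10:86300162-86300411, plus strand): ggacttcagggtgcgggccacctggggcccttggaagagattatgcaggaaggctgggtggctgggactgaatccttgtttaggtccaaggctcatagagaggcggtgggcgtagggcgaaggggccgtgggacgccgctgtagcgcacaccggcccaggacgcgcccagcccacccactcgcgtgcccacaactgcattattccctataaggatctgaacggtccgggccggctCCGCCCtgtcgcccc
Timp2 (chr11:118355412-118355661, minus strand): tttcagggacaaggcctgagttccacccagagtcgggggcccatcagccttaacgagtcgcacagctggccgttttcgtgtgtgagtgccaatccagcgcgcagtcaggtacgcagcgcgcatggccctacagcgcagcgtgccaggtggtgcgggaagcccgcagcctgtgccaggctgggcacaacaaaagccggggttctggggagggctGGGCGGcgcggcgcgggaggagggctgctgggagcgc
Mmp14 held 2 GC boxes, Timp3 and Timp2 held 1 each, and 32.7% of 32851 such windows held at least 1. Adamts1 held 3, Mmp11 held 2 and Timp1, the tested member least like Mmp14 over the arrays, held 1, so that 6 of the 8 members with an entry had a GC box. G and C made up 55.2%, 65.6% and 68.0% of the bases, against a median of 52.4%. The GC box was chosen after the sequences had been seen.

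In 300-base windows that add the 50 bases after the start, 8 of the 10 genes had an entry, Mmp2 and Mmp9 having none. The motif searched for AP-1, the factor of Fos and Jun proteins, was TGANTCA, which reads the same on both strands. It was found in 7.81% of the 32851 windows and, within the family, in Mmp3 and Mmp13. Each site is given in 30 bases, with the match in capitals, since these are the family's AP-1 matches and both genes were dim on all 6 arrays.
Mmp3 (chr9:7445765-7445794, plus strand): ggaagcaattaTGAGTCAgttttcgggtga
Mmp13 (chr9:7272468-7272497, plus strand): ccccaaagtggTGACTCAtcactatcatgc
The matches began 46 and 35 bases before the start of Mmp3 and Mmp13. The Ets motif GGAAGT, on either strand, was found in Mmp3, Mmp13 and Timp1, against 23.8% of windows. An IRF motif of 10 bases, a pair of GAAA runs with any 2 bases between, was searched on both strands and found on the opposite strand in Mmp13, against 3.44% of windows, and the E-box CACGTG, a site of Myc, in no member, against 7.15%. No match overlapped another within the family windows. Mmp14, Timp2, Timp3, Mmp11 and Adamts1 held no match to these 4 motifs in this window.

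Taken as a family, 0 of the 6 tested probe sets passed the adjusted threshold of 0.05 in any of the 3 comparisons, as did 0% of all 7453 in each. In estradiol against doxycycline, 3 of 6 had an unadjusted p of limma under 0.05 (Mmp14, Timp2 and Timp3), against 14% of all tested probe sets, and 5.66% in the lower direction. Groups did not overlap, with estradiol lower, for 4 of 6 (these and Mmp11), against 24.7% of all probe sets. All 6 fold changes were below 0, as were 49.6% of all, and their median was -1.08 on the log2 scale, against 0.00 over all probe sets. The filter acted on the mean over all arrays, so these counts cover the 6 brighter probe sets and not the whole family.

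For withdrawal against doxycycline, 1 of 6 had an unadjusted p of limma under 0.05 (Timp2), against 4.37% of all tested probe sets. Groups did not overlap, with withdrawal lower, for 2 of 6 (Timp2 and Mmp14), against 15% of all. The median log2 fold change was -0.62, against 0.01 over all probe sets, and it was -0.18 with withdrawal replicate 1 left out and -1.04 with replicate 2 left out. For estradiol against withdrawal, 0 of 6 had an unadjusted p of limma under 0.05, against 0.698% of all. Groups did not overlap, with estradiol lower, for 1 of 6 (Mmp14), against 10.2% of all. The median was -0.60, against 0.01 over all, and it was -0.20 with withdrawal replicate 2 left out and -1.01 with replicate 1 left out. The 3 comparisons share arrays, so they are not independent of one another.

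**Figure D2:**
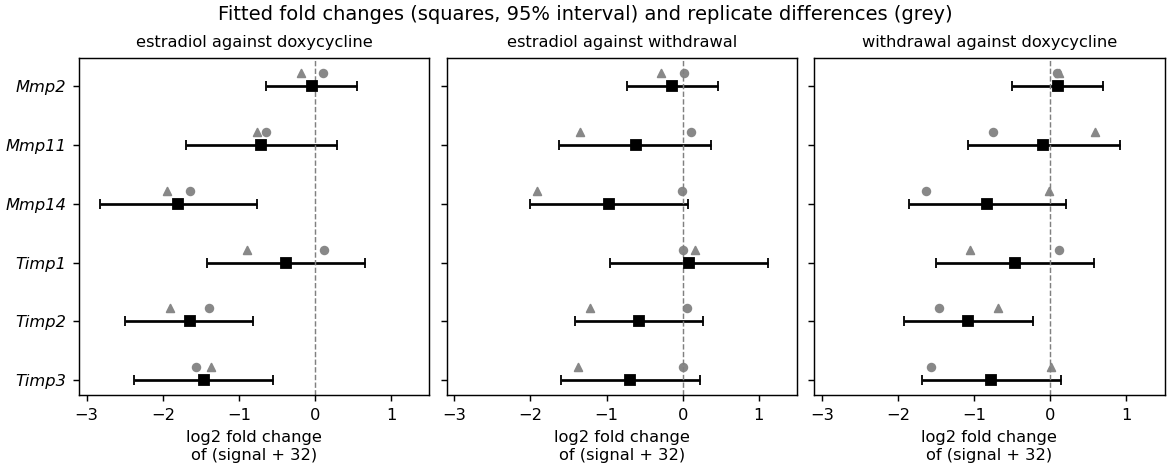
The log2 fold change of signal + 32 (horizontal axis) is shown for each tested gene in 3 comparisons, as a black square with its 95% interval from limma, and grey symbols give the differences in replicate 1 (circle) and replicate 2 (triangle). For estradiol against doxycycline the intervals of Mmp14, Timp2 and Timp3 lie below 0, while in the other comparisons the replicates of Mmp14 and Timp3 lie far apart.

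The spread used in the test came from all 3 groups, of which the withdrawal group had the most different pair of arrays. In a setting added after the data were seen, the estradiol and doxycycline arrays were fitted without both withdrawal arrays. Then Mmp14 (adjusted p of limma 0.0286) and Timp3 (0.0431) passed, with unchanged fold changes, while Timp2 (0.0531), Mmp11 (0.148), Timp1 (0.567) and Mmp2 (0.952) did not. In that fit 132 of 7453 probe sets passed, which is 1.77%. Planned fits that dropped a single withdrawal array take their spread from the same estradiol and doxycycline arrays. They thus largely repeat the added fit and are not separate evidence. In the planned fits that dropped a withdrawal array, 2 of the 6 passed, again Mmp14 and Timp3. Over all probe sets 131 (1.76%) passed when replicate 1 was dropped and 133 (1.78%) when replicate 2 was. With any estradiol or doxycycline array left out, 0 of the 6 passed.

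Between single arrays, the family fell into patterns that crossed the groups. Estradiol replicate 1 and withdrawal replicate 1 differed by at most 0.11 on the log2 scale in any tested member. Withdrawal replicate 2 differed from withdrawal replicate 1 at least 2-fold in 4 of 6 members, with Mmp14, Timp3 and Mmp11 higher and Timp1 lower in replicate 2. Against doxycycline replicate 2 it differed 2-fold in 1, Timp1, and against doxycycline replicate 1 in 2, Timp1 and Timp2. The doxycycline arrays differed 2-fold from each other in 0 members, as did the estradiol arrays, which were 0.97 apart for Timp1 and 0.91 for Timp2.

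**Figure D3:**
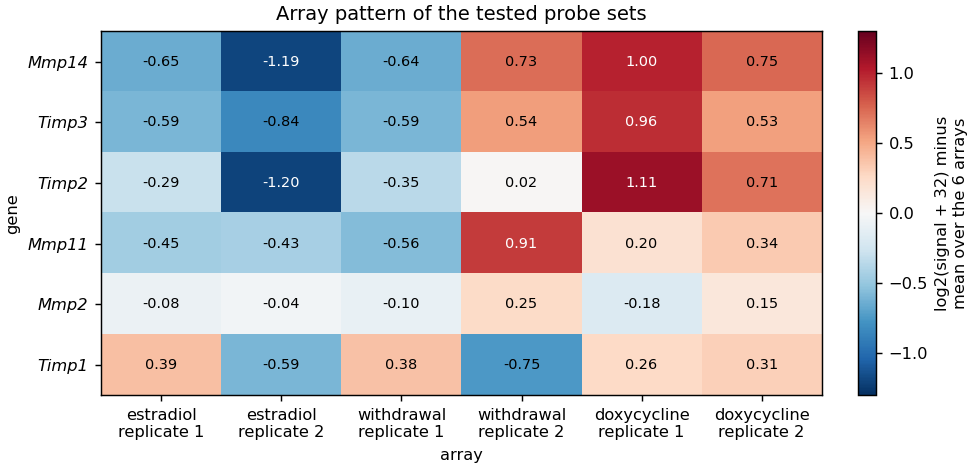
Colours and numbers give log2(signal + 32) minus the mean over the 6 arrays for each tested gene (rows) on each array (columns). Mmp14 and Timp3 share a pattern, from -1.19 to 1.00 and from -0.84 to 0.96, and Timp1 is low on estradiol replicate 2 (-0.59) and withdrawal replicate 2 (-0.75).

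Likeness of patterns was measured over the 6 arrays as the root mean square difference of the centred log2 values, where 0 means identical. The nearest member to Mmp14 was Timp3, and the reverse, at 0.192. Timp3 was also the nearest member to Timp2 (0.319) and to Mmp11 (0.399). Timp1 was the farthest member from Mmp14 (0.948), Mmp11 (0.854) and Timp3 (0.833). Among all tested genes, the nearest to Mmp14 were Ptx3 (0.185), Timp3, Txndc16 (0.204), Pdgfra (0.213) and Cpt1a (0.215). Ptx3 encodes a secreted pentraxin, Pdgfra the alpha receptor of platelet-derived growth factor, and Cpt1a an enzyme needed for fatty acids to enter mitochondria. Ptx3 had signals of 146.9 and 86.3 with estradiol, 172.3 and 552 after withdrawal, and 633 and 631 with doxycycline. Pdgfra had 617 and 359.9 with estradiol, 591 and 2138.5 after withdrawal, and 2587 and 1966 with doxycycline. Both were thus low on the same 3 arrays as Mmp14.

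The nearest genes to Timp1 were Lamtor2 (0.069), a part of the Ragulator complex on lysosomes, Emd (0.078), which encodes emerin of the nuclear envelope, Romo1 (0.081), a mitochondrial protein, Lypla1 (0.090), a thioesterase, and Aamp (0.095). Romo1 had signals of 1621 and 745 with estradiol, 1560.5 and 746 after withdrawal, and 1497 and 1341 with doxycycline. As for Timp1, these were low on estradiol replicate 2 and withdrawal replicate 2.

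**Figure D4:**
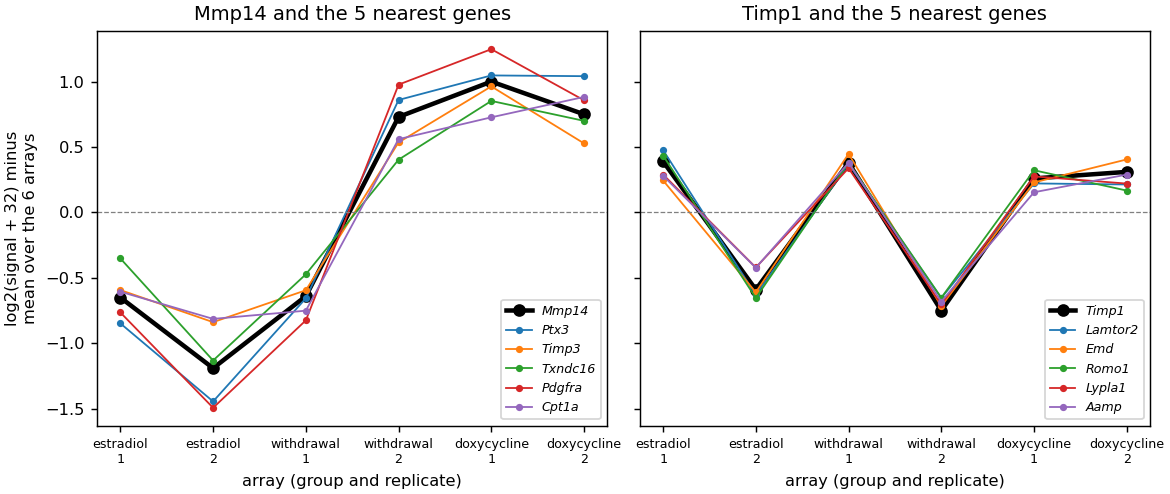
Lines give log2(signal + 32) minus each gene's mean over the 6 arrays (vertical axis) by array (horizontal axis), for Mmp14 with its 5 nearest genes on the left and Timp1 with its 5 nearest on the right. The Mmp14 set is below 0 on both estradiol arrays and withdrawal replicate 1, and the Timp1 set is below 0 on replicate 2 with estradiol and after withdrawal.

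The summed signal of the 11 fibroblast marker probe sets was lower on the arrays on which Mmp14 was low. It was 20452 and 15381 with estradiol, 20368 and 25425 after withdrawal, and 28803 and 26873 with doxycycline. The brightest markers, Col1a1, Col1a2 and S100a4, weigh most in this linear sum. Its collagen genes, Dcn, Fn1 and Lum are also in the list of matrix substrates below, so these results are not separate. Single markers differed: Pdgfra and the type I collagen genes were low on the arrays that were low in Mmp14, while S100a4 had 7210 and 4037 with estradiol, 7321 and 5125 after withdrawal, and 6377 and 4919.5 with doxycycline. Thy1 had 539 and 311 with estradiol, 546.5 and 513 after withdrawal, and 737 and 497 with doxycycline. These did not follow Mmp14, and the part of the markers in the family result was not tested. All arrays were of the same labelled line. In these bulk samples, fewer cells that express a marker and less RNA per cell cannot be told apart. The macrophage and leukocyte markers summed to 570 and 539 with estradiol, 528 and 549 after withdrawal, and 528 and 577 with doxycycline. The epithelial markers summed to 185 and 209.9 with estradiol, 175.5 and 183.6 after withdrawal, and 223.6 and 267.8 with doxycycline, and the endothelial markers to 42.2 and 87.1, 53.6 and 61, and 71.5 and 86.9 in the same order of groups.

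Among other metalloproteinases and TIMP-4, 16 of 31 listed genes were on the array and 6 were tested, of which 0 passed the test in any comparison. In the estradiol group all 6 were lower than with doxycycline, with a median log2 fold change of -0.58 against 0.00 over 5662 tested genes. Of those 5662 genes, 50% were lower in that comparison. The share was 48.1% for withdrawal against doxycycline and 49.7% for estradiol against withdrawal, and the lists below have the same background. Adam19, a membrane protease of the ADAM family, had signals of 101.2 and 48.3 with estradiol, 127.6 and 215.4 after withdrawal, and 420.7 and 159.5 with doxycycline. Its log2 fold change for estradiol against doxycycline was -1.51 (SE 0.46, adjusted p of limma 0.258). Bmp1, which trims the ends of procollagens, stood at -0.77 in that comparison (SE 0.28, adjusted p of limma 0.301), from 164.7 and 158.2 on the estradiol arrays and 330.0 and 269.4 on the doxycycline arrays. Adam10, a sheddase, stood at -0.74 (SE 0.37) and Mmp17, a metalloproteinase anchored in the membrane, at -0.42 (SE 0.38). For withdrawal against doxycycline 5 of 6 were lower (median -0.46), with Adam10 at -0.86 (SE 0.37) and Adam15 at -0.35 (SE 0.30). For estradiol against withdrawal 4 of 6 were lower (median -0.13), with Adam9 at -0.30 (SE 0.35). With withdrawal replicate 1 left out these medians became -0.15 and -0.45, and with replicate 2 left out -0.73 and 0.07, the last with 2 of 6 lower.

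Of 23 genes that activate or restrain metalloproteinases, 20 were on the array and 15 were tested, with 0 passing. In the estradiol group 11 of 15 were lower than with doxycycline (median -0.28), and the members with the smallest p lay on both sides of 0. Plaur, the urokinase receptor, which focuses plasmin activity at the cell surface, had signals of 114.9 and 113.8 with estradiol, 72.5 and 65.2 after withdrawal, and 26.8 and 44.4 with doxycycline. The 3 groups were apart on every array, estradiol being highest. Its log2 fold change was 1.13 for estradiol against doxycycline (SE 0.25, adjusted p of limma 0.255), 0.54 for estradiol against withdrawal (SE 0.25, adjusted p of limma 1.00) and 0.59 for withdrawal against doxycycline (SE 0.25, adjusted p of limma 0.925).

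Reck encodes an inhibitor of metalloproteinases that is anchored in the membrane. It had signals of 65.2 and 12.1 with estradiol, 57.4 and 202.6 after withdrawal, and 155.0 and 181.7 with doxycycline. It was low on the same 3 arrays as Mmp14. Its log2 fold change was -1.61 for estradiol against doxycycline (SE 0.50, adjusted p of limma 0.273) and -1.15 for estradiol against withdrawal (SE 0.50, adjusted p of limma 1.00). The lysosomal protease cathepsin B, Ctsb, stood at -1.08 for estradiol against doxycycline (SE 0.30), and the hyaluronan receptor Cd44 at 0.81 (SE 0.32). In the other comparisons 11 of 15 were lower for withdrawal against doxycycline (median -0.30), with Bsg, an inducer of metalloproteinases, at -0.73 (SE 0.34) and the plasminogen activator Plat at -0.47 (SE 0.29). For estradiol against withdrawal 8 of 15 were lower (median -0.03), near the 49.7% of all tested genes. The matrix glycoprotein gene Thbs2 stood at -1.14 (SE 0.63). With withdrawal replicate 1 left out the medians of these comparisons became -0.06 and -0.22, and with replicate 2 left out -0.36 and 0.15, the last with 6 of 15 lower.

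Of 36 matrix substrates, 34 were on the array and 29 were tested, with 0 passing. For estradiol against doxycycline 22 of 29 were lower, with a median log2 fold change of -0.54, and 7 had an unadjusted p of limma under 0.05, all lower. Over all tested genes 5.76% were lower at that p. Decorin, Dcn, a collagen-binding proteoglycan, had signals of 302.5 and 64.5 with estradiol, 290.7 and 638 after withdrawal, and 1136.5 and 560 with doxycycline. Its log2 fold change for estradiol against doxycycline was -2.21 (SE 0.62, adjusted p of limma 0.257). Nid2, a basement membrane linker, had signals of 20 and 2.6 with estradiol, 20.8 and 11.1 after withdrawal, and 84.8 and 95.8 with doxycycline. Without doxycycline Nid2 was thus dim, below the signal of about 29.0 at which the filter fell. For estradiol against doxycycline it stood at -1.53 (SE 0.28, adjusted p of limma 0.255). It passed in the added setting without both withdrawal arrays. In the same comparison, with all arrays, Col6a1, a chain of type VI collagen, stood at -1.17 (SE 0.34). The laminin chain Lama4 stood at -0.87 (SE 0.23) and was dim, at 9.1 and 11.6 with estradiol and 45.1 and 45.5 with doxycycline.

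For withdrawal against doxycycline 20 of 29 substrates were lower (median -0.05), but the median was 0.20 with withdrawal replicate 1 left out and -0.62 with replicate 2 left out. Nid2 stood at -1.36 (SE 0.28) and the type I collagen chain Col1a2 at -0.48 (SE 0.30). For estradiol against withdrawal 25 of 29 were lower (median -0.31), and the median was -0.03 with withdrawal replicate 2 left out and -0.81 with replicate 1 left out. The dim Lama4 stood at -0.84 (SE 0.23), with 9.1 and 11.6 on the estradiol arrays and 42.8 and 44.5 on the withdrawal arrays. Tenascin C, Tnc, stood at -1.22 (SE 0.51) and the type V collagen chain Col5a2 at -0.76 (SE 0.36).

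Of 25 transcription factors reported to act on metalloproteinase promoters, 21 were on the array and 18 were tested, with 0 passing. For estradiol against doxycycline 14 of 18 were lower (median -0.24), and the AP-1 subunit Fosl1 was not among them. Its signals were 136.8 and 222.3 with estradiol, 139.5 and 99.5 after withdrawal, and 80.8 and 65.4 with doxycycline. Its log2 fold change was 0.98 for estradiol against doxycycline (SE 0.30, adjusted p of limma 0.258). Relb, a subunit of NF-kB, had 68.5 and 63.3 with estradiol, 89.3 and 105.1 after withdrawal, and 134.2 and 146.1 with doxycycline, estradiol being lowest and without overlap (-0.81 for estradiol against doxycycline, SE 0.24, adjusted p of limma 0.257). The Ets factor Elk1 stood at -0.55 (SE 0.27) and Sp1, which binds GC boxes, at 0.58 (SE 0.32). For withdrawal against doxycycline 9 of 18 were lower (median -0.06), near the 48.1% of all tested genes, with Jun at -0.44 (SE 0.29). For estradiol against withdrawal 13 of 18 were lower (median -0.13), with Myc at -0.59 (SE 0.42) and Elk3 at -0.26 (SE 0.27). These medians became 0.16 and -0.20 with withdrawal replicate 1 left out, and -0.28 and 0.10 with replicate 2 left out, where 7 of 18 were lower in estradiol against withdrawal.

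**Figure D5:**
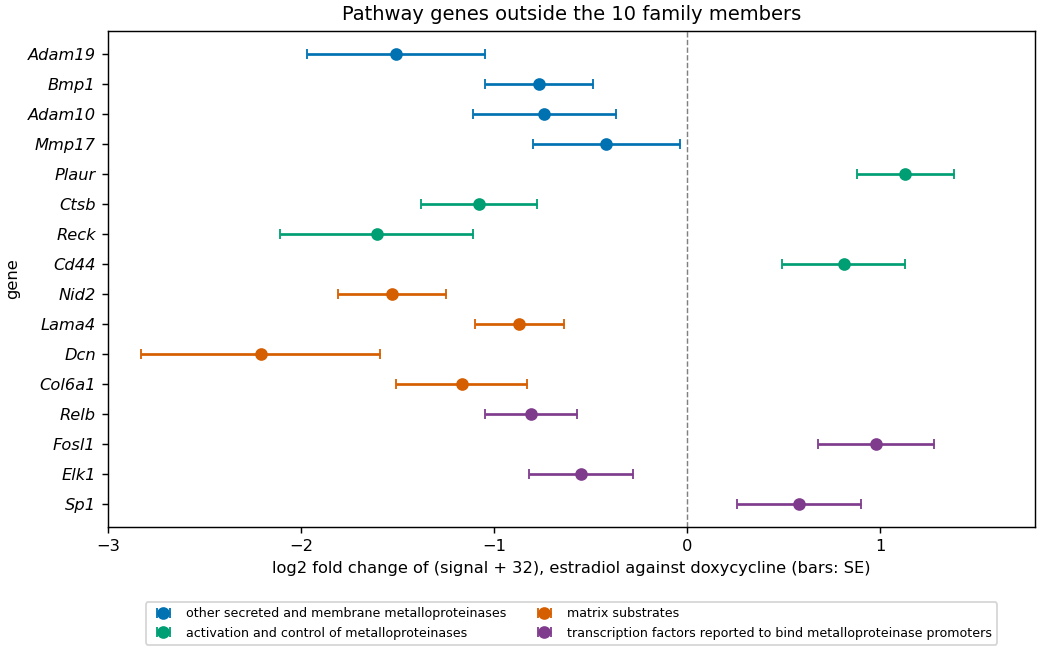
Points give the log2 fold change of signal + 32 for estradiol against doxycycline (horizontal axis), with SE bars, for the 4 genes of smallest p in each list (rows), coloured by list. Plaur (1.13), Fosl1 (0.98), Cd44 (0.81) and Sp1 (0.58) lie above 0 and the other 12 below it.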

How the data were processed

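Total RNA of 6 samples was labelled with biotin and read on 1-colour Affymetrix arrays, 1 per sample, per the labels' protocols. The deposited intensities are MAS5 signals on a linear scale, per the submitters' processing notes; the version is not given in the sources used here. Arrays had been scaled alike, since the factors to a common 2% trimmed mean were 0.999968 to 1.00006, and median signals were 49.7 to 52.6. The number of arrays limits the precision.

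Signals were scaled, turned into log2(signal + 32), which understates changes of dim probe sets, and filtered: 66 controls were left out, and so was the dimmest 40% by mean log2 signal. The other 7453 were fitted with limma 3.58.1 in R 4.3.3, with 1 mean per group, an intensity trend, 3 residual and 5.23 prior degrees of freedom, two-sided p-values and Benjamini-Hochberg adjustment at 0.05 over all probe sets. The fit was also run on simulated data with independent noise on each array, and no result here rests on that run. Of 12422 probe sets that are not controls, 10833 had 1 symbol, 396 several and 1193 none, and 0 symbols needed an update through Entrez identifiers. Genes are read by their brightest probe set.

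Members and lists were chosen with earlier results of these data known. All members are named, with the 4 genes of smallest unadjusted p per list and comparison (not each is printed), the nearest members, and the 5 nearest genes to the metalloproteinase and the inhibitor of highest mean signal. Replicate numbers go with the extraction method, so by the labels they pair arrays. Deviations from group means correlated across probe sets at -0.00727 (withdrawal and doxycycline), 0.449 (estradiol and withdrawal) and -0.0284 (estradiol and doxycycline). Promoter windows come from RefSeq (GRCm38.p6).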

Additional observations from a re-analysis of the deposited data

How the results depend on the processing

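The 18 log2 fold changes of the family were refitted in 14 settings (13 planned, 1 added after the data were seen, which covers estradiol against doxycycline alone). Of 237 refitted values, 221 kept their direction and their side of the threshold, 6 came to pass it and 10 changed sign. The 6 were Mmp14 at -1.80 and Timp3 at -1.46 for estradiol against doxycycline, each in the fits that dropped 1 or both withdrawal arrays. Those fits take their spread from the same estradiol and doxycycline arrays, so they are not independent of one another. The 10 sign changes arose when single arrays were left out, in values that did not pass in any setting. Over such fits Mmp2 ranged from -0.08 to 0.27 for withdrawal against doxycycline, from -0.31 to 0.04 for estradiol against withdrawal and from -0.21 to 0.12 for estradiol against doxycycline. Mmp11 ranged from -0.82 to 0.65 and from -1.36 to 0.12 in the first 2 of these, and Timp1 from -1.03 to 0.10, from -0.48 to 0.65 and from -0.87 to 0.10 in the 3. Over all probe sets 0 were called in each comparison with all arrays, and leaving out 1 array gave 0 to 26 for withdrawal against doxycycline (26 without doxycycline replicate 1), 0 to 17 for estradiol against withdrawal (17 without withdrawal replicate 1) and 0 to 133 for estradiol against doxycycline (131 and 133 without withdrawal replicates 1 and 2, and 28 without doxycycline replicate 1). The added setting without both withdrawal arrays gave 132, of which 2 were members, and leaving out 1 array gave 0 to 2 members. The count of 0 with all arrays also held with the replicate block, a smaller or larger pseudocount, quantile normalization, no filter, the lowest 60% left out and no intensity trend. With the replicate block Mmp14 stayed at -1.80 for estradiol against doxycycline, and the block changed no call. At an unadjusted p under 0.05 it gave 435, 64 and 1219 probe sets, against 326, 52 and 1041 without it, for withdrawal against doxycycline, estradiol against withdrawal and estradiol against doxycycline. Where a fit left an arm with 1 array, that array was assumed to vary like the others. The causes of these changes were not tested.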
